A study of Homo sapiens with 28 samples.

Results

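Genes induced by BET inhibitors are described here through 7 genes, TEX14, TUBB3, DHRS2, SERPINI1, MAP2, MAPRE2 and CCN3, out of 16482 genes in the table of all reads and 13029 in the table of T>C reads. The 7 genes were chosen by their measured values in these libraries, as genes low in DMSO and raised by JQ1 or IBET151 in nuclear or cytoplasmic reads. Their levels under DMSO, JQ1 and IBET151 are therefore given as a description, with no test. Tests are given for the VHL-linked compounds against DMSO and against each other.

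RNA was sequenced from MDA-MB-453, a human breast cancer cell line of luminal, HER2-amplified type. The cells were kept for 3 h in DMSO, in JQ1, in IBET151, in JQ1-VHL or in IBET151-VHL, and 0.1 mM 4-thiouridine was added for the last 60 min, by a protocol that is given for all groups and speaks of drug-treated cells. After 10% Drosophila S2 cells were mixed in, digitonin and a spin parted the cytoplasm from the nuclei in all groups, which gave 28 libraries in 10 groups: 3 libraries per treatment and fraction, and 2 for IBET151 in each fraction. Doses are not in the labels, so the compounds were compared at doses that may differ, and the labels do not say whether the libraries of a group were separate cultures, so p-values measure the spread between these libraries.

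JQ1 and IBET151 occupy the acetyl-lysine pocket of bromodomain and extra-terminal (BET) proteins, which carry transcription elongation factors to acetylated chromatin. The VHL-linked compounds tether such an inhibitor to a VHL ligand, which recruits a ubiquitin ligase, so that BET proteins are marked for degradation. BET inhibitors lower many transcripts and raise a smaller group, in which histone genes, HEXIM1 and SERPINI1 are often used as markers of the response. 4-thiouridine enters RNA as it is made, and its alkylation gives T-to-C conversions in the reads, so T>C reads mark RNA made during the labelling.

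The 7 genes fall into 4 roles. TUBB3 is the class III beta-tubulin of neurons, MAP2 a microtubule-associated protein of dendrites, and MAPRE2 (EB2) a protein that binds growing microtubule ends. TEX14 is needed for the intercellular bridges between male germ cells. DHRS2 is a short-chain dehydrogenase/reductase that was first described in growth-arrested hepatoma cells. SERPINI1 (neuroserpin) is a secreted inhibitor of tissue plasminogen activator, and CCN3 is a secreted matricellular protein.

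Values are signal scaled by the authors to ERCC spike-in RNA, which was added per mass of RNA in a fraction. They are not scaled to gene length, but each read comes from the 3′ end of a transcript. In such bulk libraries, fewer cells that make a transcript and less of it per cell cannot be told apart. Libraries held 30647584 to 68475299 cytoplasmic and 17851589 to 38658448 nuclear reads, and the T>C reads among them numbered 82264 to 379401 in cytoplasmic and 214725 to 1928012 in nuclear libraries. The summed level of 9 luminal markers was 97587 to 180053 in cytoplasmic libraries, and the 4 basal and mesenchymal markers summed to 7.85 to 28.9. Of the stromal markers, COL1A1 stood at 1170.3 to 2496 in the cytoplasm, while COL1A2 and DCN were at 5.44 and 2.69 or less and LUM had no row. Nuclear libraries of the same treatment differed in the share of T>C reads over all genes. This share was 8.02%, 6.34% and 2.25% in the DMSO libraries 1, 2 and 3, and 6.67%, 5.69% and 1.95% in those of JQ1. It was 1.915%, 2.364% and 2.405% in JQ1-VHL and 1.722%, 1.325% and 1.097% in IBET151-VHL, so the replicates did not keep the same order. The part of this spread in single results was not tested.

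Promoter windows of 300 bases (RefSeq, build GRCh38.p14, which run from upstream of an annotated start to just past it) were found for 5 of the 7 genes. DHRS2 and TUBB3 are shown because their levels moved together over the libraries while their windows shown here differ in composition, and MAPRE2 because its change was seen mainly in T>C reads. All 3 lie on the plus strand: DHRS2 at chr14:23629865-23630164, TUBB3 (the second of its 2 windows) at chr16:89923092-89923391 and MAPRE2 (1 of 2 windows) at chr18:35041163-35041462. Capitals mark exact matches on either strand. The motifs searched were the TATA box as TATAAA and the CCAAT box as CCAAT. The GC box was searched as GGGCGG and the E-box as CACGTG. The cAMP response element was searched as TGACGTCA and the AP-1 site as TGACTCA, and no motif holds another.
DHRS2: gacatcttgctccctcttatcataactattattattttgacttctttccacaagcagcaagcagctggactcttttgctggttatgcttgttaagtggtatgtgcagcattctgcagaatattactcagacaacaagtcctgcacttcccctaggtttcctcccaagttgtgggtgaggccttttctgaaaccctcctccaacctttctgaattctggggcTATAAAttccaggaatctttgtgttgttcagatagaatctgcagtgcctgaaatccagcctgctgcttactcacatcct
TUBB3: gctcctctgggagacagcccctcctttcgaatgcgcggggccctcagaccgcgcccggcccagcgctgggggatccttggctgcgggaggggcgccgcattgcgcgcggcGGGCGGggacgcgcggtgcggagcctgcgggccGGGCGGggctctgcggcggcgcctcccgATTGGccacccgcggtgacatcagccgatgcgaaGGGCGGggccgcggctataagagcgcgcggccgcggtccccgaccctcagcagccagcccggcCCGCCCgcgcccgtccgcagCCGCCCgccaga
MAPRE2: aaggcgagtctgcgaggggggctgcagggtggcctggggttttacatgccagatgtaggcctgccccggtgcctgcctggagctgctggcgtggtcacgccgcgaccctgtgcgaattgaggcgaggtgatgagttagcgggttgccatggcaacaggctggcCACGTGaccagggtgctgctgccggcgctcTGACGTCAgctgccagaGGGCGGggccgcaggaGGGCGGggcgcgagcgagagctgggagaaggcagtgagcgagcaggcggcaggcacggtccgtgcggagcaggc
The DHRS2 window held TATAAA once, 0 CpG and 44.0% G+C, against a median over all windows of 14 CpG and 58.7%. The TUBB3 window held 47 CpG at 79.0% G+C, with 5 matches to GGGCGG and 1 to CCAAT. The MAPRE2 window held 25 CpG at 69.7% G+C, with 2 matches to GGGCGG, 1 to CACGTG and 1 to TGACGTCA. Of 35116 windows in the table, 11.5% held TATAAA, 34.6% CCAAT, 45.0% GGGCGG, 7.26% CACGTG, 1.85% TGACGTCA and 4.95% TGACTCA. The first TUBB3 window held 9 CpG at 65.3% G+C, with TGACTCA once and GGGCGG 0 times, so the other TUBB3 window is the one rich in CpG. In the single SERPINI1 window and the 3 MAP2 windows the only match was 1 CCAAT in MAP2. A match here describes letters in the window and not a bound factor.

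The means of TUBB3, TEX14 and DHRS2 in JQ1 and IBET151 were 3.27-fold to 23.5-fold that of DMSO over both fractions. Nuclear DHRS2 in JQ1 overlapped DMSO. Cytoplasmic TUBB3 was at 21.7, 12.7 and 5.69 in DMSO, 221, 158 and 104 in JQ1, and 213 and 243 in IBET151. Every inhibitor library lay above every DMSO library, and the group means were 12.03-fold and 17.1-fold that of DMSO. In the nucleus TUBB3 was at 6.49, 31.8 and 49.8 in DMSO, 121, 295 and 428 in JQ1, and 469 and 464 in IBET151. The groups again did not overlap, and the lowest value of each nuclear group with 3 libraries was in replicate 1.

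TEX14 stood higher above DMSO in the nucleus than the other 6 genes did, under both inhibitors. Its cytoplasmic level was 13.7, 24.5 and 8.80 in DMSO, 108, 163 and 55.0 in JQ1, and 159 and 85.6 in IBET151. Its nuclear level was 70.5, 103 and 107 in DMSO, 1487, 3231 and 1443 in JQ1, and 2940.3 and 1457 in IBET151. The inhibitor libraries did not overlap the DMSO libraries in either fraction. The nuclear means were 22.0-fold and 23.5-fold that of DMSO, and the cytoplasmic means 6.94-fold and 7.81-fold.

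DHRS2 was at 61.2, 139 and 62.6 in cytoplasmic DMSO, 317, 346 and 397 in JQ1, and 286 and 288 in IBET151. The inhibitor libraries lay within a narrow band above all DMSO libraries. In the nucleus it was at 45.5, 168 and 283 in DMSO, 225, 691 and 2469 in JQ1, and 481 and 1358 in IBET151. Here JQ1 replicate 1 lay below DMSO replicate 3, so the groups overlapped, although within a replicate number JQ1 was higher in 3 of 3 pairs.

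SERPINI1, the marker gene among the 7, was high mainly in the nucleus. Its nuclear level was 16.7, 33.6 and 34.5 in DMSO, 90.05, 159 and 136 in JQ1, and 316 and 241 in IBET151, with no overlap of the inhibitors and DMSO. In the cytoplasm it was low throughout, at 10.5, 5.91 and 3.10 in DMSO, 33.2, 15.1 and 5.61 in JQ1, and 16.2 and 18.2 in IBET151. These cytoplasmic values rest on 6 to 39 reads per library, and JQ1 overlapped DMSO.

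MAP2, MAPRE2 and CCN3 were less clearly raised in all reads than the label of induced genes implies. MAP2 was at 49.9, 87.0 and 69.9 in cytoplasmic DMSO and 90.3, 60.3 and 29.2 in JQ1, so that the JQ1 mean of 59.9 lay below the DMSO mean of 68.9. In the nucleus MAP2 was at 119, 278 and 266 in DMSO, 283, 450.4 and 363 in JQ1, and 608 and 438 in IBET151. The nuclear groups did not overlap, but the lowest JQ1 library was only just above the highest DMSO library. MAPRE2 was at 70.8, 98.8 and 39.8 in cytoplasmic DMSO, 131, 185 and 66.2 in JQ1, and 168 and 111 in IBET151. Its nuclear level was 63.1, 145 and 130.2 in DMSO, 139.7, 237 and 210.2 in JQ1, and 350.4 and 293 in IBET151. For MAPRE2 JQ1 overlapped DMSO in both fractions, although within each replicate number JQ1 was higher. IBET151 lay above DMSO in both fractions.

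CCN3 was at 5.64, 5.07 and 10.4 in cytoplasmic DMSO, 19.6, 12.7 and 9.72 in JQ1, and 15.2 and 20.04 in IBET151. Its nuclear level was 13.9, 61.9 and 130.2 in DMSO, 40.5, 139 and 85.04 in JQ1, and 109 and 137 in IBET151. JQ1 overlapped DMSO in both fractions, and so did IBET151 in the nucleus. In nuclear reads its means were higher under the VHL-linked compounds, which are given with their tests further on. Over all genes tested, 0.818% (JQ1) and 0.898% (IBET151) rose in the cytoplasm and 0.0208% and 0.0902% in the nucleus, by limma at an adjusted p under 0.05. Since these contrasts chose the 7 genes, nothing is read from those shares.

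**Figure D1:**
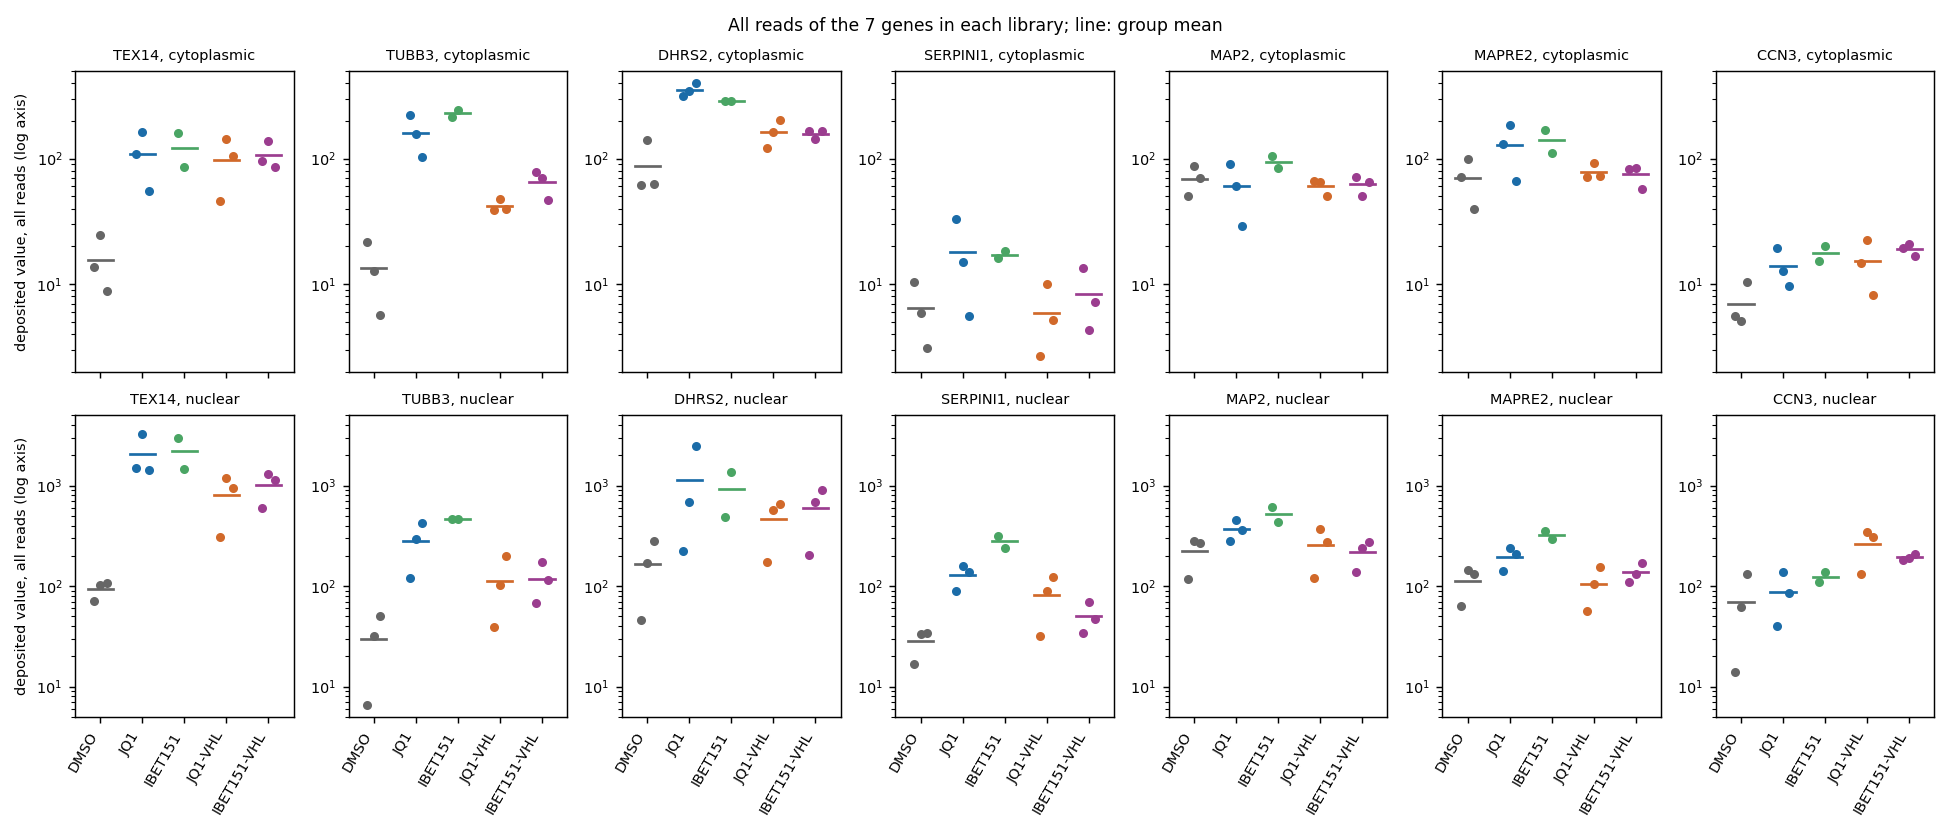
Deposited values of all reads of the 7 genes (log axis) in each of the 14 cytoplasmic (top) and 14 nuclear (bottom) libraries, 1 point per library and a line at each group mean. In the cytoplasm TEX14 and TUBB3 stand apart from DMSO in every drug-treated group, while MAP2 does not (JQ1 mean 59.9, DMSO mean 68.9).

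Under the VHL-linked compounds TEX14 and TUBB3 rose in the cytoplasm. JQ1-VHL raised 3 of the 7 genes (TEX14, TUBB3 and DHRS2) and IBET151-VHL the same 3, against 0.417% and 0.465% of all genes tested that rose. CCN3 also passed with IBET151-VHL, which makes a count of 4, but nothing is read from its call. The other genes did not pass, and 0 of the 7 fell. The test was limma on log2(value + 1), fitted to all genes with a value of at least 10 in at least 2 libraries, with Benjamini-Hochberg adjustment. All 7 genes passed this filter, but SERPINI1 and CCN3 did so only through treated libraries, which partly fixed the direction of the CCN3 call. The DMSO libraries, in which the genes were chosen to be low, enter these comparisons. The genes were also chosen to be high in JQ1 or IBET151, so where a VHL-linked compound is set beside its parent the order of the levels is partly fixed by that choice and nothing is read from it.

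Cytoplasmic TEX14 was at 45.6, 142 and 106 in JQ1-VHL and 96.2, 137 and 85.3 in IBET151-VHL. All 6 libraries lay above the 3 DMSO libraries and within the span of JQ1 and IBET151, apart from JQ1-VHL replicate 1, which was lower. TEX14 rose by 2.53 ± 0.48 (log2, SE) with JQ1-VHL and 2.77 ± 0.48 with IBET151-VHL (limma, adjusted p = 0.00267 and 0.000858). TUBB3 was at 38.9, 48.0 and 39.4 in JQ1-VHL and 78.0, 70.02 and 47.1 in IBET151-VHL. These libraries lay above every DMSO library and below every library of JQ1 and IBET151. TUBB3 rose by 1.75 ± 0.40 and 2.34 ± 0.40 (limma, adjusted p = 0.00825 and 0.000673).

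DHRS2 was at 122, 161 and 204 in cytoplasmic JQ1-VHL and 164, 143 and 167 in IBET151-VHL. JQ1-VHL replicate 1 lay below DMSO replicate 2, and every VHL library lay below every library of the parent inhibitors. DHRS2 rose by 0.96 ± 0.29 and 0.95 ± 0.29 (limma, adjusted p = 0.0397 and 0.0352). Leaving out 1 library ended the JQ1-VHL call in 9 of 14 cases, among them DMSO replicates 1 and 3 (adjusted p = 0.135 and 0.108) and JQ1-VHL replicates 2 and 3 (0.0961 and 0.178). The same held for the other 5 libraries, which were both IBET151 libraries, JQ1 replicate 2 and IBET151-VHL replicates 1 and 3 (0.0513 to 0.0549). The IBET151-VHL call was lost without DMSO replicate 1 or 3 or without any library of its own group (adjusted p = 0.0605 to 0.133).

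Cytoplasmic CCN3 was at 14.8, 22.7 and 8.17 in JQ1-VHL and 19.5, 20.8 and 16.7 in IBET151-VHL. IBET151-VHL lay above all DMSO libraries, whereas JQ1-VHL replicate 3 lay below DMSO replicate 3. CCN3 had a log2 change of 1.37 ± 0.43 with IBET151-VHL (limma, adjusted p = 0.0415) and of 0.97 ± 0.43 with JQ1-VHL (limma, adjusted p = 0.188). Since CCN3 passed the filter only through treated libraries, nothing is read from its IBET151-VHL call. Its call was lost in 9 of 14 cases: without DMSO replicate 1 or 2, any IBET151-VHL library, either IBET151 library, JQ1 replicate 2 or JQ1-VHL replicate 1 (adjusted p = 0.0544 to 0.123). The values rest on 6 to 29 reads per library. The fit of only the groups compared and edgeR on the recovered reads called TEX14 and TUBB3 alone with either VHL-linked compound. The DHRS2 call was lost there with JQ1-VHL (adjusted p = 0.145 and 0.0584) and IBET151-VHL (0.138 and 0.0615), and without a filter on low values (0.0605 and 0.0548).

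SERPINI1, MAP2 and MAPRE2 did not pass in cytoplasmic reads of the VHL-linked compounds. SERPINI1 was at 2.68, 9.97 and 5.20 in JQ1-VHL and 13.5, 4.32 and 7.16 in IBET151-VHL, where it overlapped DMSO. Its intervals of change, from -1.48 to 1.23 and from -1.04 to 1.67 (log2, 95%), leave room for a change of 2-fold either way. MAP2 had changes of -0.16 and -0.13 with intervals from -0.91 to 0.60 and -0.89 to 0.63. MAPRE2 had changes of 0.25 and 0.17 with intervals from -0.56 to 1.06 and -0.65 to 0.98.

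In nuclear reads 1 of 7 genes rose with JQ1-VHL (TEX14) and 2 with IBET151-VHL (TEX14 and TUBB3), against 0.902% and 0.888% of all genes. Since same-numbered libraries deviated together in every treatment but IBET151, the replicate number was also fitted as a block. The IBET151 libraries were in this fit too and enter its estimate of the spread, although their numbers do not pair with the other groups (lowest r = -0.224, with JQ1). The blocked fit called 5 genes with JQ1-VHL (TEX14, TUBB3, DHRS2, SERPINI1 and CCN3) and 4 with IBET151-VHL (the same without SERPINI1), against 2.62% and 2.29% of all genes. The log2 changes are the same in both fits. All 7 genes passed the filter in nuclear DMSO alone.

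Nuclear TEX14 was at 308, 1192 and 935 in JQ1-VHL and 595, 1298 and 1126 in IBET151-VHL. All of these lay above DMSO and below every library of JQ1 and IBET151. TEX14 rose by 2.92 ± 0.70 and 3.36 ± 0.70 (limma, adjusted p = 0.00869 and 0.000833). The JQ1-VHL call was lost without its replicate 2 or 3 (adjusted p = 0.0981 and 0.0724). Nuclear TUBB3 was at 39.5, 102 and 198 in JQ1-VHL and 67.5, 173 and 114 in IBET151-VHL. JQ1-VHL replicate 1 lay below DMSO replicate 3, and IBET151-VHL did not overlap DMSO. TUBB3 rose by 2.26 ± 0.68 with IBET151-VHL (limma, adjusted p = 0.0346), a call lost without DMSO replicate 1 or 2 or IBET151-VHL replicate 2 or 3 (adjusted p = 0.0612 to 0.220). With JQ1-VHL it had a change of 2.02 ± 0.68 (limma, adjusted p = 0.118, and 2.14e-05 with the block).

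CCN3 had higher nuclear means in both VHL-linked compounds than in their parents, which is given as a description. It was at 131, 343 and 309 in JQ1-VHL and 183, 190.3 and 206 in IBET151-VHL, all above the 3 DMSO libraries. The means were 261 ± 114 (SD, n = 3) and 193 ± 11.7, beside 88.1 ± 49.3 in JQ1, 123 ± 20.2 in IBET151 (n = 2) and 68.7 ± 58.5 in DMSO. Its changes from DMSO were 2.28 ± 0.67 and 1.96 ± 0.67 (limma, adjusted p = 0.0513 and 0.0728, and 1.06e-06 and 1.45e-05 with the block). The difference of JQ1-VHL from JQ1 was 1.61 ± 0.67 and that of IBET151-VHL from IBET151 0.65 ± 0.75, given without a test because the parent libraries chose the genes.

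Nuclear DHRS2 was at 172, 566 and 658 in JQ1-VHL and 206, 692 and 911 in IBET151-VHL. The replicate 1 libraries lay within the DMSO range and the others above it, and the changes were 1.62 ± 0.74 and 1.96 ± 0.74 (limma, adjusted p = 0.383 and 0.115, and 4.36e-05 and 1.81e-07 with the block). SERPINI1 was at 32.2, 89.03 and 122 in JQ1-VHL and 34.2, 69.2 and 47.02 in IBET151-VHL. Both groups had 1 library among the DMSO values, and the changes were 1.36 ± 0.65 and 0.82 ± 0.65 (limma, adjusted p = 0.443 and 0.550), the first of which passed with the block (0.0124). Nuclear MAP2 had changes of 0.16 ± 0.65 and 0.01 ± 0.65 and MAPRE2 of -0.13 ± 0.64 and 0.35 ± 0.64, and neither passed in either fit.

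**Figure D2:**
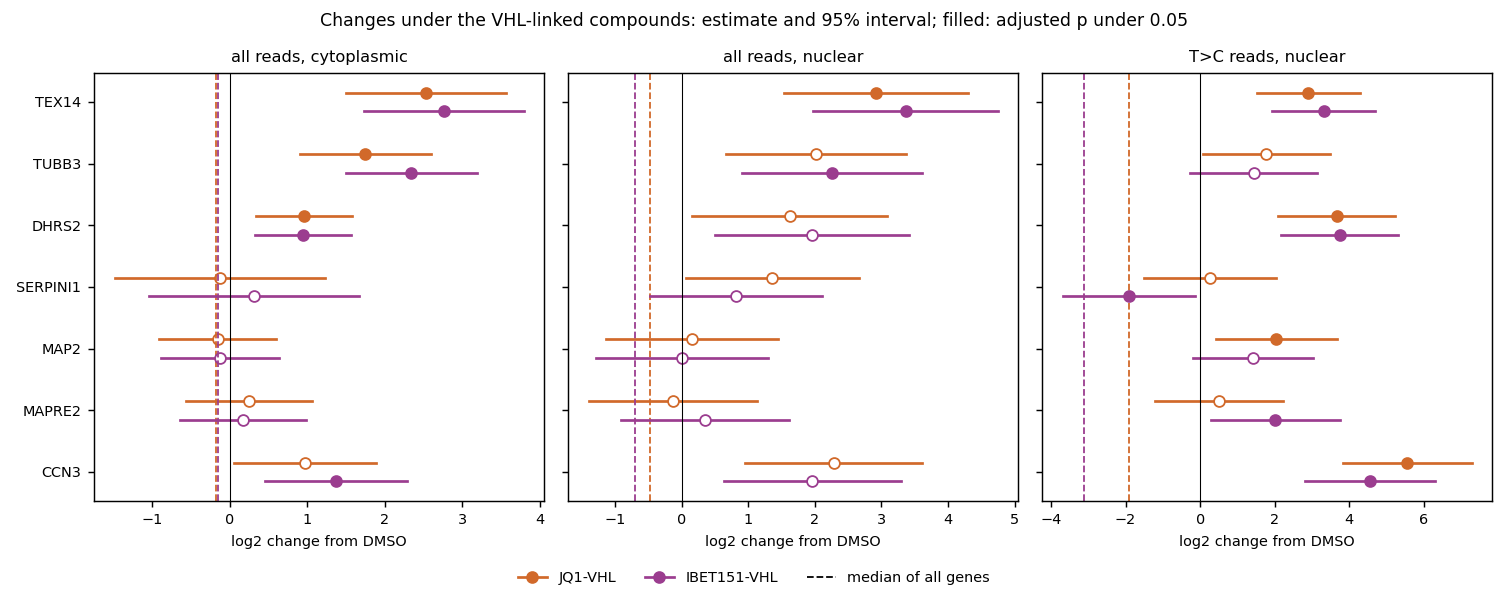
Log2 change from DMSO under JQ1-VHL and IBET151-VHL with its 95% interval (lines) for each gene in cytoplasmic, nuclear and nuclear T>C reads, filled where the adjusted p was under 0.05. In nuclear T>C reads TEX14 and MAP2 alone passed the filter in DMSO. Nothing is read from the filled points of the other genes there, or from that of cytoplasmic CCN3. Dashed lines mark the median change of all genes, which was -1.92 and -3.12 in nuclear T>C reads, where TEX14 lies above 0 for both compounds.

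Nuclear T>C reads of most genes fell under the VHL-linked compounds, whereas TEX14 rose under both. MAP2 passed upward with JQ1-VHL alone, a call that did not hold in all fits, as given further on. Of 12059 genes tested, 60.5% fell and 1.28% rose with JQ1-VHL, and 83.9% fell and 1.09% rose with IBET151-VHL, with median changes of -1.92 and -3.12 (log2). The minimum for T>C reads was a value of 5 in at least 2 libraries, which TEX14 and MAP2 alone passed in DMSO. The other 5 entered through treated libraries, so their direction was at least partly fixed by the filter and their values are given with no test. By limma 4 of the 7 genes passed with JQ1-VHL and 5 with IBET151-VHL, counts that include such genes and from which nothing is read.

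CCN3 had 0 T>C reads in all 3 nuclear DMSO libraries, among 118 reads, which allows a share of up to 2.54%. Its T>C level was 12.97, 36.2 and 6.42 in JQ1, 22.2 and 31.9 in IBET151, 22.1, 49.3 and 88.9 in JQ1-VHL, and finally 13.97, 36.3 and 22.4 in IBET151-VHL. Every treated library thus held T>C reads of CCN3 where no DMSO library did. With 3 reads over the DMSO group as the floor, the mean was at least 38.6-fold higher in JQ1-VHL and at least 17.5-fold higher in IBET151-VHL. The bounds for JQ1 and IBET151 were 13.4-fold and 19.5-fold. The difference of JQ1-VHL from IBET151-VHL for CCN3 was 1.00 (95% interval from -0.73 to 2.73, log2), given with no test.

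DHRS2 was at 0.928, 1.77 and 5.75 in nuclear T>C reads of DMSO, from 1 to 3 reads per library. It was at 20.1, 72.0 and 46.7 in JQ1-VHL and 27.95, 70.9 and 40.3 in IBET151-VHL, beside 35.1, 85.2 and 133 in JQ1 and 58.4 and 109.5 in IBET151. All treated libraries lay well above DMSO, and the log2 changes of DHRS2 with the VHL-linked compounds were 3.66 ± 0.80 and 3.74 ± 0.80. TEX14 was at 8.35, 12.4 and 15.3 in DMSO, 42.2, 114 and 171 in JQ1-VHL and 76.9, 168 and 150.0 in IBET151-VHL, beside 225, 450.4 and 241 in JQ1 and 415 and 313 in IBET151. The VHL libraries lay between DMSO and the inhibitors without overlap. TEX14 rose by 2.90 ± 0.70 and 3.31 ± 0.70 (limma, adjusted p = 0.000388 and 7.79e-06).

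MAP2 was at 7.42, 17.7 and 0 in nuclear T>C reads of DMSO, 74.0, 118 and 44.9 in JQ1, and 157 and 79.6 in IBET151. Under the VHL-linked compounds it was lower than in any inhibitor library, at 10.7, 26.5 and 33.3 in JQ1-VHL and 14.8, 10.4 and 15.7 in IBET151-VHL, and both overlapped DMSO. MAP2 rose by 2.05 ± 0.83 with JQ1-VHL (limma, adjusted p = 0.0261), a call lost without DMSO replicate 3 (0.391) or JQ1-VHL replicate 2 or 3 (0.0541 and 0.0830), and with edgeR and DESeq2 (0.137 and 0.0949). MAPRE2 was at 2.78, 5.31 and 1.92 in DMSO, 32.8, 59.5 and 38.5 in JQ1, and 60.4 and 21.9 in IBET151. It was at 2.01, 7.58 and 6.66 in JQ1-VHL, overlapping DMSO, and at 17.1, 6.92 and 31.4 in IBET151-VHL, above them. The log2 change of MAPRE2 with IBET151-VHL was 2.02 ± 0.88.

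SERPINI1 was at 2.78, 7.08 and 3.83 in nuclear T>C reads of DMSO, 4.58, 14 and 1.61 in JQ1, and 24.2 and 19.9 in IBET151. It was at 4.02, 5.68 and 6.66 in JQ1-VHL, and at 0, 1.73 and 0 in IBET151-VHL, from 1 read in all. IBET151-VHL was thus below every DMSO library, and the log2 change of SERPINI1 was -1.92 ± 0.91, or -0.70 with median-ratio scaling. TUBB3 was at 1.86, 5.31 and 3.83 in DMSO, 22.1, 59.5 and 41.7 in JQ1, 60.4 and 81.6 in IBET151, 4.69, 13.3 and 42.2 in JQ1-VHL, and 7.76, 34.6 and 4.48 in IBET151-VHL. The VHL groups overlapped DMSO and the inhibitors did not. Its changes under the VHL-linked compounds were 1.78 ± 0.86 and 1.43 ± 0.86 (log2).

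**Figure D3:**
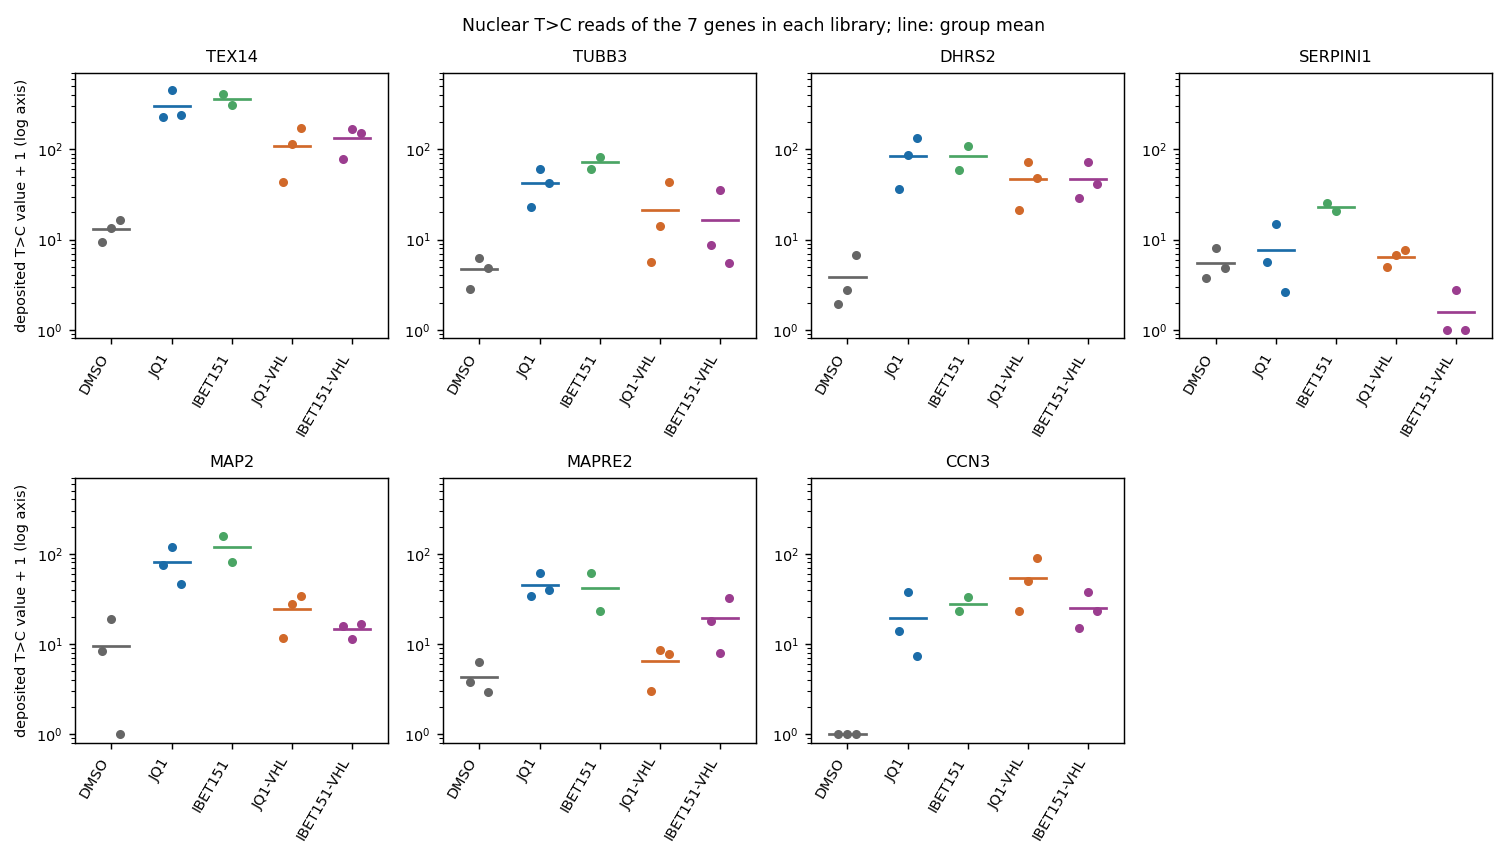
Nuclear T>C values plus 1 (log axis) of each gene in each library, with a line at each group mean. CCN3 is at 0 in all 3 DMSO libraries and above 6 in every treated library, and MAP2 is higher in each JQ1 and IBET151 library than in any VHL library.

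Cytoplasmic T>C reads were few. Of the 7 genes, 3 passed the filter (TEX14, TUBB3 and DHRS2), and 0 of the 7 passed in DMSO alone, so their values are given with no test. By limma TEX14 alone was called with each VHL-linked compound, beside 0.19% (JQ1-VHL) and 0.159% (IBET151-VHL) of all genes tested that rose, and nothing is read from that call. TEX14 had 0 T>C reads in each DMSO library, 1, 5 and 6 reads in JQ1-VHL, and 7, 12 and 9 in IBET151-VHL. The mean was at least 4.68-fold and at least 9.91-fold higher with the floor of 3 reads over the DMSO group. TUBB3 had 10, 19 and 14 T>C reads in JQ1 and 3 and 12 in IBET151, and 1 in all of DMSO. It had 0 in JQ1-VHL, among 164 reads, which allows a share of up to 1.83%, and 2 among 276 in IBET151-VHL. These floors cover counting error only.

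The share of a gene's nuclear reads that were T>C differed between the genes. The TEX14 share was 12.6% in DMSO (24 of 190 reads) and 13.02% to 16.6% in the drug groups, each pooled over libraries, although its level differed up to 23.5-fold between group means. The TUBB3 share was 13.7% in DMSO (7 of 51 reads) and 13.4% to 16.3% in the drug groups. For DHRS2 it was 1.71% in DMSO (5 of 292) and 8.33% to 10.4% in the drug groups, and each drug library lay above each DMSO library.

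For MAP2 the share was 4.25% in DMSO, 23.0% in JQ1, 22.6% in IBET151, 9.04% in JQ1-VHL and 7.34% in IBET151-VHL. The MAPRE2 share was 3.21% in DMSO, 22.8% in JQ1, 12.8% in IBET151, 4.81% in JQ1-VHL and 13.6% in IBET151-VHL. CCN3 went from 0 of 118 reads in DMSO to 23.1%, 22.0%, 19.2% and 11.2% in the same order of drugs. The SERPINI1 share was lower in every drug group than in DMSO: 16.4% in DMSO (9 of 55 reads), 5.60% in JQ1, 7.91% in IBET151, 8.00% in JQ1-VHL and 0.952% in IBET151-VHL. For all genes together it was 5.14% in DMSO, 4.34% and 4.47% in JQ1 and IBET151, and 2.23% and 1.37% in JQ1-VHL and IBET151-VHL. No library without 4-thiouridine was analysed here, so the share of T>C reads that are background is unknown. These shares were not tested.

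**Figure D4:**
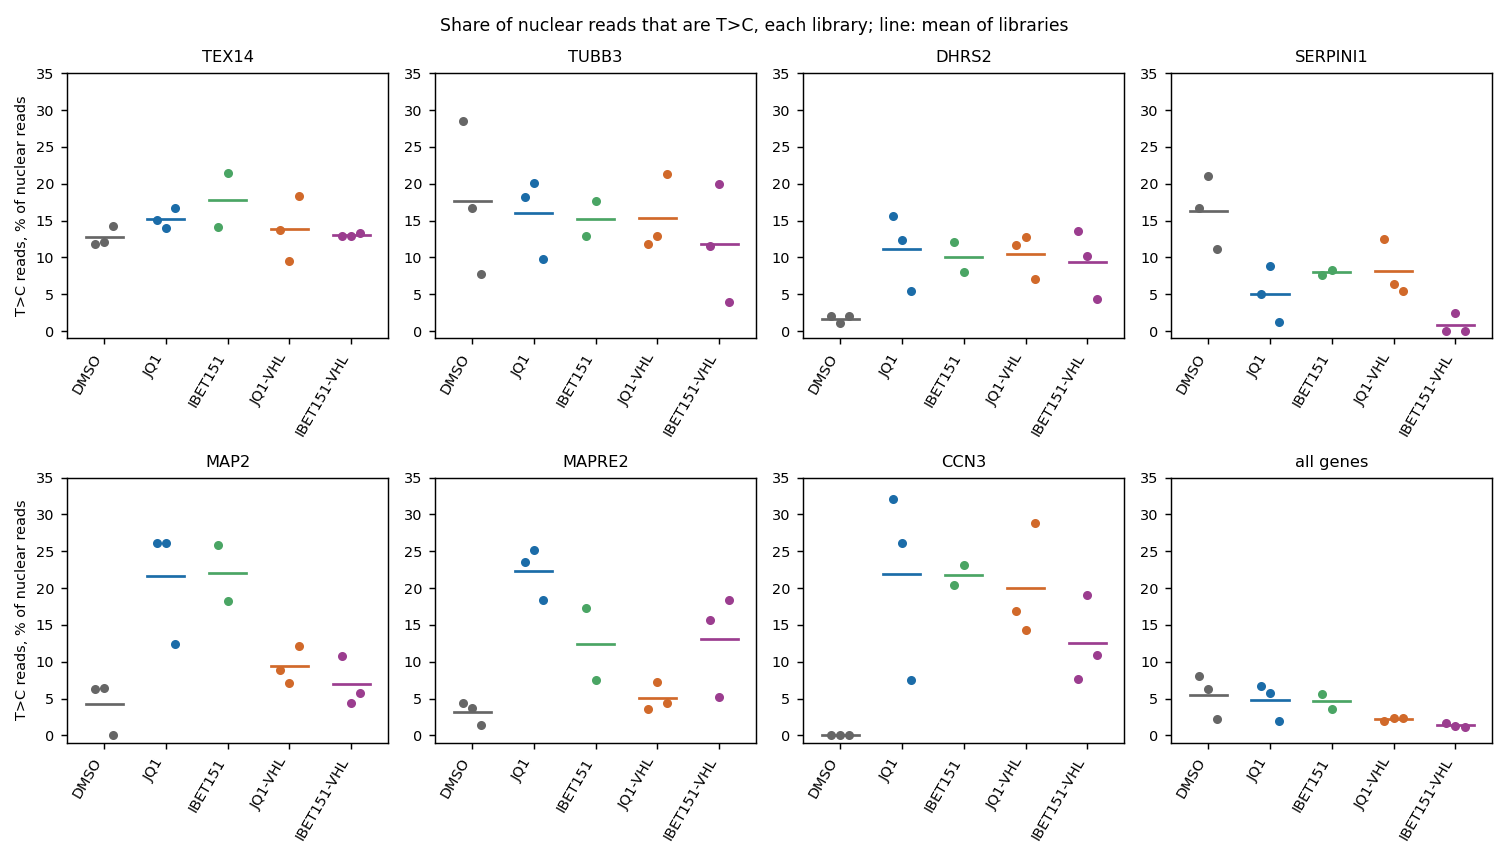
T>C reads as a percentage of nuclear reads for each gene and for all genes, 1 point per library and a line at the mean of the libraries. TEX14 libraries lie between 9.54% and 21.5% in every group, while DHRS2 lies at 1.05% to 2.04% in DMSO and at 4.42% or more in each drug library.

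Hardly any gene of the whole set differed between JQ1-VHL and IBET151-VHL in all reads. By limma, 0.016% of all genes did so in cytoplasmic and 0.0% in nuclear reads. Beside these shares 0 of the 7 differed in either fraction, so nothing is read from that count. An unadjusted p under 0.05 was reached by 0 of 7 in each fraction, a threshold at which all genes were not counted. edgeR and DESeq2 also called 0 of the 7. The intervals are wide: for cytoplasmic TUBB3 the difference of JQ1-VHL from IBET151-VHL was -0.59 with a 95% interval from -1.44 to 0.25 (log2). JQ1 and IBET151 chose the genes, so their difference is given with no test, and for nuclear TEX14 it was -0.12 (JQ1 from IBET151, log2). In T>C reads limma called 0 of 7 nuclear and 0 of 3 cytoplasmic genes between the VHL-linked compounds, and edgeR and DESeq2 called 0. The shares of all genes were 11.0% and 3.05%. Apart from TEX14 and MAP2 in the nucleus, these genes passed the filter only through treated libraries, so nothing is read from the counts. For SERPINI1 the nuclear difference was 2.19 ± 0.91 (log2), given with no test.

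In DMSO the nuclear level of each of the 7 genes was above its cytoplasmic level on the log2 scale, by amounts on both sides of the median of all genes. The differences were 2.69 ± 0.58 for CCN3, 2.59 ± 0.54 for TEX14, 2.02 ± 0.60 for SERPINI1 and 1.60 ± 0.50 for MAP2, and 0.86, 0.69 and 0.67 for TUBB3, MAPRE2 and DHRS2. The median over all genes was 1.26, and 0.17 with median-ratio scaling. Each fraction is scaled per mass of its own RNA, and the part of this in the median was not tested. The genes were chosen to be low in these DMSO libraries, so the differences are a description. By limma 4 of the 7 passed, beside 47.9% of all genes, a count from which nothing is read.

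The ratio of nuclear to cytoplasmic means of TEX14 was 5.97 in DMSO, 18.9 in JQ1, 18.0 in IBET151, 8.30 in JQ1-VHL and 9.49 in IBET151-VHL. TEX14 thus gained more in the nucleus than in the cytoplasm under the inhibitors, while cytoplasmic TEX14 was at a similar level in all 4 drugs (group means 97.8 to 122). TUBB3 kept a ratio between 1.75 and 2.69 in all groups and MAPRE2 one between 1.33 and 2.30. The SERPINI1 ratio was 4.35 in DMSO and 16.2 in IBET151, and that of CCN3 was 9.79 in DMSO and 17.2 in JQ1-VHL.

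**Figure D5:**
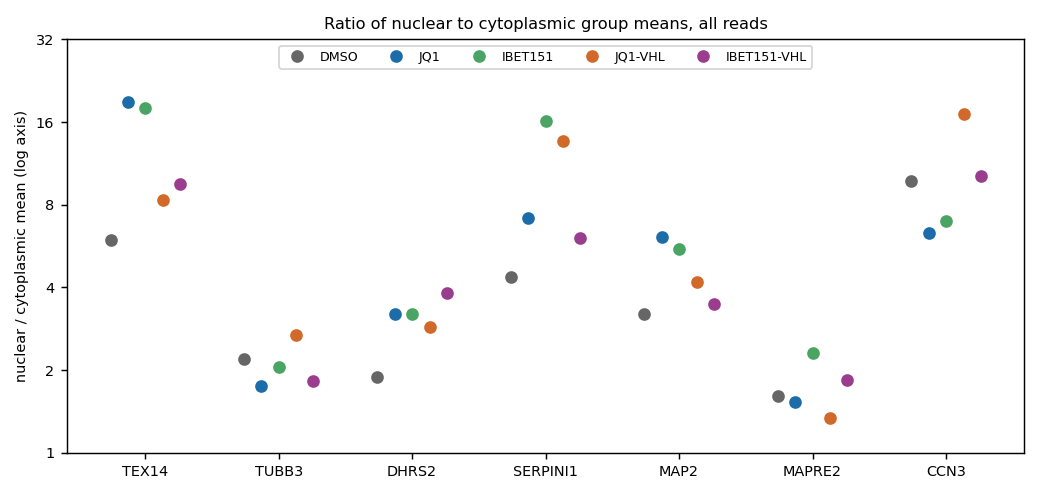
Ratio of the nuclear to the cytoplasmic mean of each gene (log axis) in the 5 treatments. TEX14 moves from 5.97 in DMSO to 18.9 and 18.0 under JQ1 and IBET151, whereas TUBB3 stays between 1.75 and 2.69.

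Other genes of the same families were counted from lists, with the 7 genes left out. Of 11 BET inhibitor response genes tested in the cytoplasm, 8 rose and 1 (ZMYND8) fell with JQ1, and 5 rose and 1 (ZMYND8) fell with IBET151, where 0.818% and 0.898% of all genes rose and 4.0% and 1.62% fell. BRD2, a BET gene, had a level of 7308 ± 1496 in DMSO and 12862 ± 2750 in JQ1 and rose by 0.82 ± 0.18 (limma, adjusted p = 0.0156). HEXIM1, an inhibitor of the elongation kinase P-TEFb, had a change of 0.77 ± 0.23 with JQ1 (limma, adjusted p = 0.0710). With the VHL-linked compounds 0 of the 11 rose in the cytoplasm and 2 (HEXIM1 and ZMYND8) or 3 (these and ZCCHC24) fell, where 12.5% and 15.4% of all genes fell. At an unadjusted p under 0.05, 1 of the 11 was higher and 3 were lower with JQ1-VHL, and 5 were higher and 3 lower with IBET151-VHL. The share of all genes at this unadjusted threshold was not counted, so nothing is read from these counts. In the nucleus 0 of 11 rose with JQ1-VHL and 1 with IBET151-VHL, where 0.902% and 0.888% of all genes rose. It was the histone gene H2BC4, from 238 ± 109 in DMSO to 1319 ± 754 (log2 change 2.35 ± 0.73, limma, adjusted p = 0.0439). H2BC21, also a histone gene, had nuclear changes of 2.32 and 2.25 with JQ1-VHL and IBET151-VHL (limma, adjusted p = 0.136 and 0.0913).

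Of 12 other tubulin genes tested in the cytoplasm, TUBB2A alone rose, from 305 ± 36.9 in DMSO to 589.5 ± 101 in JQ1 and 597 ± 39.8 in IBET151 (log2 change 0.94 and 0.97, limma, adjusted p = 0.0132 and 0.0304). It did not pass with the VHL-linked compounds (-0.43 and -0.20), and 2 of the 12 (TUBA8 and TUBD1) fell with IBET151-VHL, where 15.4% of all genes fell. Of 20 other microtubule-associated protein genes, MAP1A rose with IBET151, from 35.2 ± 11.4 to 108 ± 0.665 (1.65 ± 0.40, limma, adjusted p = 0.0424), and 1 of the 20 (MAP1S) fell with both VHL-linked compounds (-0.73 and -0.84), where 12.5% and 15.4% of all genes fell. In the nucleus MAP7D2 rose with IBET151-VHL, from 19.4 ± 10.6 to 111 ± 16.2 (limma, adjusted p = 0.0103).

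Of the neuronal genes besides TUBB3 and MAP2, 0 of 11 tested in the cytoplasm passed upward with any drug, by limma. Of all genes 0.417% to 0.898% rose there, so nothing is read from this count. At an unadjusted p under 0.05 0 of the 11 were higher, a threshold at which all genes were not counted. ELAVL2, a neuronal RNA-binding protein, fell from 309.7 ± 52.2 to 120.2 ± 17.6 with JQ1-VHL and to 83.6 ± 17.4 with IBET151-VHL. The neuropeptide precursor VGF fell with both, so that 2 of 11 fell with each, where 12.5% and 15.4% of all genes fell. Of 8 germ cell genes besides TEX14, PIWIL2 alone passed in the cytoplasm. It was listed at 0 in each DMSO library and stood at 10.6 ± 5.06 in JQ1 and 13.02 ± 0.92 in IBET151, and it was tested only because of those libraries, so that its direction was fixed. In the nucleus PIWIL2 was at 3.94 ± 3.08 in DMSO, 11.05 ± 5.59 in JQ1 and 9.05 ± 9.99 in IBET151 and did not pass (limma, adjusted p = 0.963 and 1.0). None of 4 serpin, 14 short-chain dehydrogenase or 1 CCN family genes tested in the cytoplasm passed with any drug, by limma, and nothing is read from these counts.

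None of the nearest genes on either side of each of the 7 passed upward with any drug in either fraction. Of all genes 0.417% to 0.898% rose in the cytoplasm and 0.0208% to 0.902% in the nucleus, so nothing is read from this. Of 14 such neighbours 11 were tested in the cytoplasm and 14 in the nucleus, by limma. MC1R, beside TUBB3, fell with IBET151-VHL (-1.44, adjusted p = 0.00556), and ZNF397, beside MAPRE2, fell with both VHL-linked compounds (-1.15 and -1.49, adjusted p = 0.0103 and 0.00111). These are 1 of 11 with JQ1-VHL and 2 of 11 with IBET151-VHL, where 12.5% and 15.4% of all genes fell. RAD51C, next to TEX14, stood at 529 in cytoplasmic DMSO and had changes from -0.09 to 0.25 over the 4 drugs, none of which passed. SEPTIN4, on the other side of TEX14, was at 0.309 in nuclear DMSO and was tested only because of treated libraries. Its nuclear changes were 1.85, 1.27, 1.28 and 2.19 with JQ1, IBET151, JQ1-VHL and IBET151-VHL, and none passed. The median nuclear changes of the 14 neighbours were -0.3, 0.23, -0.35 and -0.54 in the same order.

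Genes with the most similar pattern were ranked by Pearson's r of log2(value + 1) over the 28 libraries, after the mean of each fraction was subtracted, among genes with a mean of at least 20. These r share libraries and depth and are a description. The nearest to TEX14 were H2BC18 (0.89), TUBB3 (0.85) and H3C4 (0.81), and those to TUBB3 were HBEGF (0.92), H3C4 (0.89) and SERTAD1 (0.88). DHRS2 was nearest to H2AC6 (0.90) and CDKN1A (0.89), SERPINI1 to CSRP2 (0.85), MAP2 to NXF1 (0.87), MAPRE2 to ZSWIM6 (0.89) and CCN3 to an unnamed gene and C14orf178 (0.84). Among the 7, TUBB3 had r of 0.85, 0.85 and 0.84 with TEX14, DHRS2 and SERPINI1. CCN3 had the lowest values, 0.23 with MAPRE2, 0.29 with MAP2 and 0.34 with SERPINI1.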

How the data were processed

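The submitters' processing notes name bcl2fastq, Trimmomatic 0.39, HISAT2, HTSeq and DESeq2, and the builds hg19, GRCh37 and dm3. How T>C reads were called is not given in the sources used here. The authors deposited signal per gene, scaled to ERCC RNA per the labels' protocols. Within each library 100% of values were whole multiples, within 0.001, of 1 step, so reads were recovered.

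limma 3.58.1 (R 4.3.3) with a variance trend was fitted to log2(value + 1) in 1 fit of the 14 libraries of a fraction, or all 28 for the DMSO fractions. A gene was kept if 2 or more libraries reached 10 in all reads, or 5 in T>C reads. P-values were adjusted by Benjamini-Hochberg per comparison, with a threshold of 0.05, two-sided. ± after a change is its standard error and after a level the SD over libraries. edgeR 4.0.16 and DESeq2 1.42.0 were run on those reads, with library sizes set by the deposited scaling. In nuclear all reads edgeR called 143 genes higher and 202 lower with JQ1-VHL, and 120 and 559 with IBET151-VHL.

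The genes and lists were chosen with earlier results of these data known. Named genes are the 7, up to 4 genes per list past the threshold with the smallest p in JQ1 or IBET151, those behind counts of 5 or fewer, BRD2, HEXIM1, the nearest genes on each side and the 3 most similar genes. Same-numbered libraries were taken as pairs where every pair's deviations correlated above 0.1, which held in all reads for every pair of treatments without IBET151 (r of at least 0.159 for nuclei and 0.203 for cytoplasm) and not for T>C reads of the VHL-linked compounds. The fits were tested on simulated data. The alternatives are in the closing section. Figures used matplotlib 3.10.9 (Python 3.11.15).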

Additional observations from a re-analysis of the deposited data

How the results depend on the processing

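Of the single-gene values recomputed under other settings, 2408 stayed on the same side of the threshold, 85 became significant, 72 lost significance and 0 changed direction with a call. With IBET151-VHL in cytoplasmic reads the count of 4 genes became 2 in the fit of only the groups compared, with edgeR, and on leaving out the first run of library numbers, an alternative chosen after seeing the data. The count of 3 with JQ1-VHL became 2 (without DHRS2) under the same 3 settings and without a filter. In nuclear reads the count of 1 with JQ1-VHL became 2 with a pseudocount of 5, 4 without that first run, and 5 with median-ratio scaling, with the replicate block, with runs as a block, with the block and median-ratio scaling together, and with weights per library. The count of 2 with IBET151-VHL became 1 without a filter, with edgeR and with DESeq2, 3 (CCN3 added) in the fit of only the groups compared, 4 with the replicate block or runs as a block, 5 with weights, 6 with median-ratio scaling, and 7 with both block and scaling. Of 14417 genes, 406 (JQ1-VHL) and 736 (IBET151-VHL) rose in the nucleus with median-ratio scaling, and 1077 and 1772 with block and scaling together. Between JQ1-VHL and IBET151-VHL 1 gene (CCN3) passed in nuclear reads with weights. In nuclear T>C reads 1 (SERPINI1) passed with the replicate block, runs as a block or weights, and 2 (TEX14 and MAPRE2) with median-ratio scaling, alone or with the block. SERPINI1 and MAPRE2 passed the filter there only through treated libraries, so nothing is read from their calls. With median-ratio scaling alone 457 of 12059 genes were higher and 138 lower in JQ1-VHL. Between JQ1 and IBET151, whose libraries chose the genes, 0 passed in nuclear reads and 2 (SERPINI1 and TUBB3) with the replicate block. With that block 4 of 14417 genes were higher and 3452 lower in JQ1 than in IBET151, so nothing is read from the 2. The IBET151 numbers also do not pair (lowest r = -0.224). The count of 4 between DMSO fractions became 2 with median-ratio scaling, alone or with the block, and 7 with weights. The count of 5 in nuclear T>C reads of IBET151-VHL became 3 without the first run.

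Leaving out 1 library gave 2 to 3 genes (JQ1-VHL) and 2 to 4 (IBET151-VHL) in cytoplasmic reads, 0 to 3 and 1 to 4 in nuclear reads, 3 to 5 and 3 to 5 in nuclear T>C reads, 1 in cytoplasmic T>C reads of either, 4 to 5 between DMSO fractions, 0 to 1 between the VHL-linked compounds in nuclear T>C reads, and 0 in the other comparisons of compounds. The cause was not tested.

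Median-ratio scaling moved the median of all genes from -0.48 and -0.71 to 0.05 and 0.06 in nuclear reads of JQ1-VHL and IBET151-VHL. Genes that rose and fell went from 130 and 154 to 406 and 882 with JQ1-VHL in the nucleus, and from 52 and 1556 to 231 and 1173 in the cytoplasm. With IBET151-VHL they went from 128 and 528 to 736 and 1369, and from 58 and 1916 to 488 and 1620. In nuclear T>C reads they became 728 and 1002, and 1673 and 3327. With few reads in DMSO, changes of CCN3, SERPINI1 and T>C reads are imprecise.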
